A study of Mus musculus with 24 samples.

Results

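Gene expression was measured in the 12 control libraries of a series of 24 from sorted mouse hematopoietic stem cells. They were chosen by their labelled group alone: 3 libraries labelled Vector, 6 labelled NTC (non-target control) and 3 labelled Pus10-WT. Each group is the control of one experiment on PUS10, a pseudouridine synthase that the series title links to stem cell aging. Vector stands against 3 libraries with PUS10 overexpressed (PUS10-OE), NTC against 6 with miR-139 knocked down (miR139-KD), and Pus10-WT against 3 with Pus10 knocked out (Pus10-KO). The labels used here give no strain, age, sort gate, vector, guide or hairpin, nor the number of animals behind a library. Because every group comes from one experiment, group, batch, handling and depth cannot be told apart in any comparison below, and p-values measure only the spread between libraries, which may be technical.

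Hematopoietic stem cells reside in bone marrow, divide rarely and renew all blood lineages. In the mouse, long-term stem cells are known for high Procr and Slamf1 and for low Cd34, Cd48 and Flt3, whereas multipotent progenitors downstream carry more Cd34, Cd48 and Flt3 and divide more often. With age, stem cells are known to grow in number and to lean toward the platelet and myeloid lineages.

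Counts assigned to genes came to 34.2 to 47.3 M per Vector library, 11.8 to 14.7 M in NTC and 14.5 to 16.5 M in Pus10-WT. Levels are given as CPM, read counts per M counts of the TMM-scaled library size (M for mega), and levels compared between genes as TPM, which also divides by exon length. Of 8 library measures, 7 differed by group in exact permutation tests of the between-group sum of squares. These ran over all 18480 assignments of the 12 libraries and were adjusted over the 8. The share of counts in ribosomal protein genes was 5.83% to 6.15% in Vector, 11.5% to 12.7% in NTC and 9.12% to 9.81% in Pus10-WT (exact permutation adjusted p = 0.0004329). Ambiguous reads came to 6.53% to 6.60%, 13% to 16.5% and 8.94% to 9.40% in the same order (exact permutation adjusted p = 0.0004329). The mitochondrial share did not pass (2.05% to 2.12%, 1.63% to 2.32% and 1.92% to 2.06%, exact permutation adjusted p = 0.740). At an equal depth of 11.5 M counts, 15854 to 15882 genes were detected in Vector, 15278 to 16451 in NTC and 16363 to 16748 in Pus10-WT (exact permutation adjusted p = 0.0428, and 0.00891 to 0.169 with any library left out, past 0.05 without each of 10 of the 12). 4 libraries are named here as the lowest or highest of their group in summed marker genes. NTC replicate 5 was high for immunoglobulin genes and NTC replicate 3 low for granulocyte genes. NTC replicate 6 was low for erythroid and high for stem cell surface genes, and Pus10-WT replicate 2 low for mitotic and erythroid genes. An outlier rule given further below, used in NTC alone, marked the immunoglobulin and surface sums but not the granulocyte and erythroid ones.

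Transcripts of the stem cell markers Kit, Mecom, Hlf, Meis1, Gata2, Procr, Slamf1 and Ly6a were counted in every library. The T cell genes Cd3e and Cd8a were listed at 0 in all 12. Other genes of the T and NK cell list were counted, and the list summed to 501 to 735 CPM in NTC, 129 to 158 in Vector and 96.3 to 272 in Pus10-WT. Markers of other blood cells were not uniformly absent. Siglech, of plasmacytoid dendritic cells, was at 0 in the Vector and Pus10-WT libraries and reached at most 26.5 CPM in NTC. Among endothelial and stromal markers Lepr stayed at or under 0.214 CPM in every library and Col1a1 at or under 3.17 CPM, while Cldn5, a tight junction protein of endothelium, was at 0 CPM in all 3 Vector libraries, 0 in all 6 NTC libraries and 173, 26.5 and 70.5 in Pus10-WT. Kdr, a receptor for vascular growth factor, was at 2.27, 0.517 and 0.323 CPM in Vector, 0 to 0.231 (median 0) in NTC and 4.84, 11.2 and 7.05 in Pus10-WT. In bulk libraries such as these, more cells of a type and more RNA per cell cannot be told apart.

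All 12 control libraries shared a large set of transcripts. Of 51331 autosomal and mitochondrial genes, 24690 had a count in at least 1 control library, 11194 had one in all 12, and 9487 reached 1 CPM in all 12, of which 8753 code for protein. Among the 100 highest genes per length, 42 coded for cytosolic ribosomal proteins and 5 were mitochondrial. Apart from these, the highest protein-coding gene was B2m, the light chain of MHC class I, at a mean of 18483 ± 855 TPM (SD) in Vector, 8749 ± 1186 in NTC and 17004 ± 293 in Pus10-WT. Actb, which encodes cytoskeletal actin, followed at 14067, 7124 and 8013 TPM, and the elongation factor gene Eef1a1 at 4717, 7543 and 9736 TPM.

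The 20 highest genes also held Ptma, Eif5a, Mif, Tubb5, Pfn1 and Calm2. Genes of protein quality control among them were Ubb, Hspa8 and Hsp90ab1, the cytosolic chaperone, at 1559, 3787 and 2781 TPM. Gpx1, which reduces hydrogen peroxide, stood at 4002, 4467 and 2438 TPM. Genes of antiviral membrane proteins and MHC class I were Ifitm1, Ifitm3, H2-D1 and H2-K1, with Ifitm3 at 3755, 1799 and 5161 TPM. Car2, a carbonic anhydrase, was high in all 3 groups (2066, 3026 and 3467 TPM). S100a8 and S100a9, which encode calprotectin of granulocytes, entered the 20 through NTC alone: S100a8 was at 0, 0 and 0.0645 CPM in Vector, 4.51 to 6501 (median 2949) in NTC and 2.65, 1.41 and 3.72 in Pus10-WT. Eef1a1, Ptma, Hspa8, H2-D1 and H2-K1 have near-identical copies or pseudogenes, so their levels are uncertain.

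A small set of genes hardly moved between the libraries. Of 3472 genes with a mean of at least 6 on the log2 CPM scale, 23 spanned less than 0.5 log2 units from the lowest to the highest of the 12 libraries. Capzb, a subunit of the actin capping protein, was at 351, 341 and 339 CPM in the Vector libraries, 321 to 384 (median 371) in NTC and 303, 298 and 319 in Pus10-WT. Fermt3, an integrin activator of blood cells, was at 341, 374 and 353 CPM in Vector, 330.0 to 399 (median 359) in NTC and 428, 421 and 408 in Pus10-WT. The other 6 with the smallest range were mt-Nd4, Morf4l1, Psme1, Eif3i, Rap1a and Npc2. Common reference genes were less even: Actb was at 15088, 14625 and 15107 CPM in Vector, 7588 to 9787 (median 7925) in NTC and 7646, 8317 and 7972 in Pus10-WT. The Vector libraries lay above all others (log2 Vector minus Pus10-WT 0.91 with SE 0.09 and edgeR adjusted p = 1.14e-05). Eef2, translation elongation factor 2, was at 369, 381 and 340.0 CPM in the Vector libraries, 2193 to 2816 (median 2475) in NTC and 1899, 2102 and 2253 in Pus10-WT. This is the opposite order, with a log2 difference of -2.76 (SE 0.10, edgeR adjusted p = 3.07e-09) between Vector and NTC.

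The control groups differed widely from each other. In 1 edgeR quasi-likelihood fit over the 12 libraries, 7663 of 15426 genes tested (49.7%) differed among the groups at an adjusted p under 0.05. Vector and NTC differed at 6412 genes (41.6%), 3152 higher in Vector (20.4%) and 3260 in NTC (21.1%). Vector and Pus10-WT differed at 4767 (30.9%), 2489 higher in Vector (16.1%) and 2278 in Pus10-WT (14.8%). NTC and Pus10-WT differed at 4217 (27.3%), 2324 higher in NTC (15.1%) and 1893 in Pus10-WT (12.3%). At least 2-fold differences made up 4701, 3504 and 2678 of these calls. Each group enters a pair of the 3 comparisons, which are therefore not independent of each other. These percentages of all genes are the shares against which the counts of list members below are read.

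Group accounted for 60.6% of the summed variance of log2(CPM + 1) over the genes tested. The first principal component carried 37.3% of the variance and the second 24.1%, and together they parted the 3 groups. Libraries of a group correlated at a median Pearson's r across genes of 0.981 in Vector, 0.928 in NTC and 0.931 in Pus10-WT, against 0.842 to 0.871 between groups. The median gene's SD within a group was 0.20 log2 units in Vector, 0.49 in NTC and 0.36 in Pus10-WT.

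**Figure D1:**
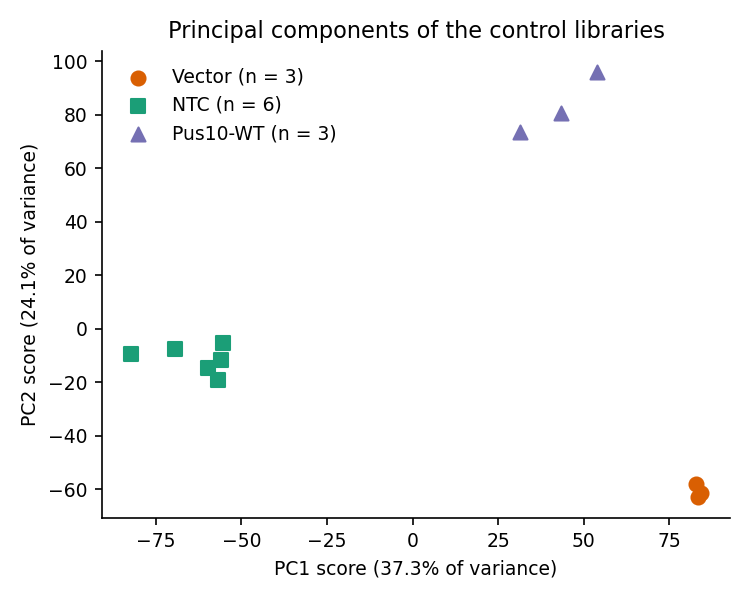
Principal components of log2(CPM + 1) over the genes tested, with PC1 (37.3% of the variance) on the horizontal axis, PC2 (24.1%) on the vertical axis, 1 point per control library and 1 colour per group. The 3 Vector, 6 NTC and 3 Pus10-WT libraries form 3 separate clouds.

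The median difference over all genes was -0.16 for Vector minus NTC, -0.18 for Vector minus Pus10-WT and 0.03 for NTC minus Pus10-WT on the log2 scale, and the lists below are read against these values. Scaling by library size alone moved the medians to -0.23, -0.40 and -0.13. It also moved the share of calls that were higher in the first group from 52.2% to 39.7% for Vector against Pus10-WT and from 55.1% to 43.7% for NTC against Pus10-WT.

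The differences also ran with base composition. The genes tested were split into 5 equal bins by the GC content of each gene's longest transcript. From the lowest bin to the highest, the bin medians were 40.8%, 45.5%, 49.1%, 53% and 57.4% GC. Over these bins, the median log2 difference of Vector minus NTC went from 0.42 through 0.18, -0.07 and -0.35 to -0.92. It went from 0.21 to -0.69 for Vector minus Pus10-WT and from -0.19 to 0.30 for NTC minus Pus10-WT. GC-rich transcripts were thus relatively low in the Vector libraries and AT-rich ones high. A fit with a GC correction for each library, added after the data were seen, called 5895, 4573 and 4092 genes in the 3 comparisons. List counts that it moved by over 1.5 times are given beside them below. Values of single genes are without this correction. Of those low in Vector, Jund is at 67.2% GC, Eef2 and Gar1 at 57.0% and Hk1 at 56.4%, while Malat1 is at 42.5%. How far GC content bears on these genes was not tested.

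**Figure D2:**
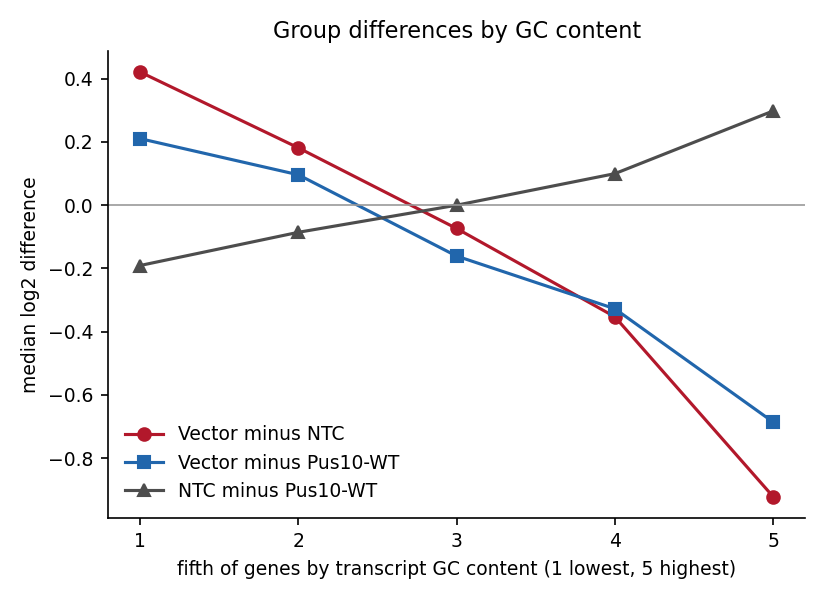
Median log2 difference (vertical axis) over 5 equal bins of the 15426 genes tested, with 1 line per pair of control groups. The bins (horizontal axis) are ordered by the GC content of each gene's longest transcript. Vector minus NTC falls from 0.42 in the lowest bin to -0.92 in the highest.

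Stem cell surface genes were highest in Pus10-WT. Of 24 tested genes of the surface and identity list, 16 were higher in Pus10-WT than in NTC and 2 lower (all genes 12.3% and 15.1%), 9 were higher in Pus10-WT than in Vector and 2 lower (14.8% and 16.1%), and 9 were higher in Vector than in NTC and 1 lower (20.4% and 21.1%). With the GC correction that 1 became 2. The median log2 difference was -1.77 for NTC minus Pus10-WT, -1.02 for Vector minus Pus10-WT and 0.70 for Vector minus NTC. The pair that went the other way against Pus10-WT was Cd34 and Cd48, of which progenitors are known to carry more. Cd34 also stands on the list of multipotent progenitor genes below.

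Procr (chr2:155751117-155755471), the endothelial protein C receptor, was at 33.2, 26.8 and 32 CPM in Vector, 18.4 to 60.9 (median 25.2) in NTC and 188, 147 and 107 in Pus10-WT. Vector and NTC overlapped, and both lay below Pus10-WT (log2 Vector minus Pus10-WT -2.26 with SE 0.39 and edgeR adjusted p = 0.00076, NTC minus Pus10-WT -2.27 with SE 0.31 and edgeR adjusted p = 0.00018). Group means were 30.7 ± 3.43 (SD, n = 3), 30.4 ± 15.4 (n = 6) and 147 ± 40.7 (n = 3).

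Slamf1, the SLAM receptor CD150, was at 20.2, 16 and 19.98 CPM in Vector, 7.21 to 18.7 (median 10.6) in NTC and 56, 66.1 and 67.7 in Pus10-WT. Pus10-WT stood above the 9 others (NTC minus Pus10-WT -2.44 with SE 0.27 and edgeR adjusted p = 3.18e-05), while Vector minus NTC missed the threshold at 0.69 (SE 0.27, edgeR adjusted p = 0.0605). Kit, the stem cell factor receptor, was at 195, 172 and 199 CPM in the Vector libraries, 171 to 230.1 (median 202) in NTC and 399, 379 and 420.1 in Pus10-WT. It overlapped between Vector and NTC and was highest in Pus10-WT (Vector minus Pus10-WT -1.08 with SE 0.12 and edgeR adjusted p = 3.56e-05). Esam, an adhesion molecule of stem cells and endothelium, was at 111, 108 and 93.4 CPM in Vector, 16.6 to 45.7 (median 29.3) in NTC and 186, 206 and 214 in Pus10-WT. Its groups did not overlap. Abcg2, the transporter behind the side population, broke the order: 272, 356 and 329 CPM in Vector, 44.3 to 145 (median 62) in NTC and 197, 169 and 196 in Pus10-WT. Vector was highest (Vector minus NTC 2.14 with SE 0.28 and edgeR adjusted p = 5.59e-05, Vector minus Pus10-WT not called at 0.77 with SE 0.34 and edgeR adjusted p = 0.102). Ly6a, which encodes Sca-1, was at 230.0, 183 and 180.5 CPM in the Vector libraries, 53.6 to 187 (median 85.6) in NTC and 401, 378 and 310.4 in Pus10-WT. NTC replicate 6 was the high one of its group for Procr and Ly6a alike. Genes of this list that did not differ between any pair of groups included Cd27.

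Cd34 (chr1:194938819-194961279) showed the largest called difference of this list. It was at 856, 898 and 869 CPM in Vector, 304 to 589 (median 356) in NTC and 33.5, 39.8 and 47.3 in Pus10-WT, or 874 ± 21.2 (SD, n = 3), 387 ± 107 (n = 6) and 40.2 ± 6.92 (n = 3). The 3 groups were wholly separate, with log2 differences of 1.17 (SE 0.18, edgeR adjusted p = 0.000216), 4.44 (SE 0.25, edgeR adjusted p = 2.08e-07) and 3.27 (SE 0.23, edgeR adjusted p = 1.26e-06) for Vector minus NTC, Vector minus Pus10-WT and NTC minus Pus10-WT. Cd48, a SLAM family ligand, was at 126, 64.4 and 76.4 CPM in Vector, 93.2 to 188 (median 130.0) in NTC and 28.3, 8.26 and 7.44 in Pus10-WT. Vector and NTC overlapped there, and each was above Pus10-WT by 2.60 (SE 0.49, edgeR adjusted p = 0.00142) and 3.21 (SE 0.48, edgeR adjusted p = 0.000304) on the log2 scale.

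**Figure D3:**
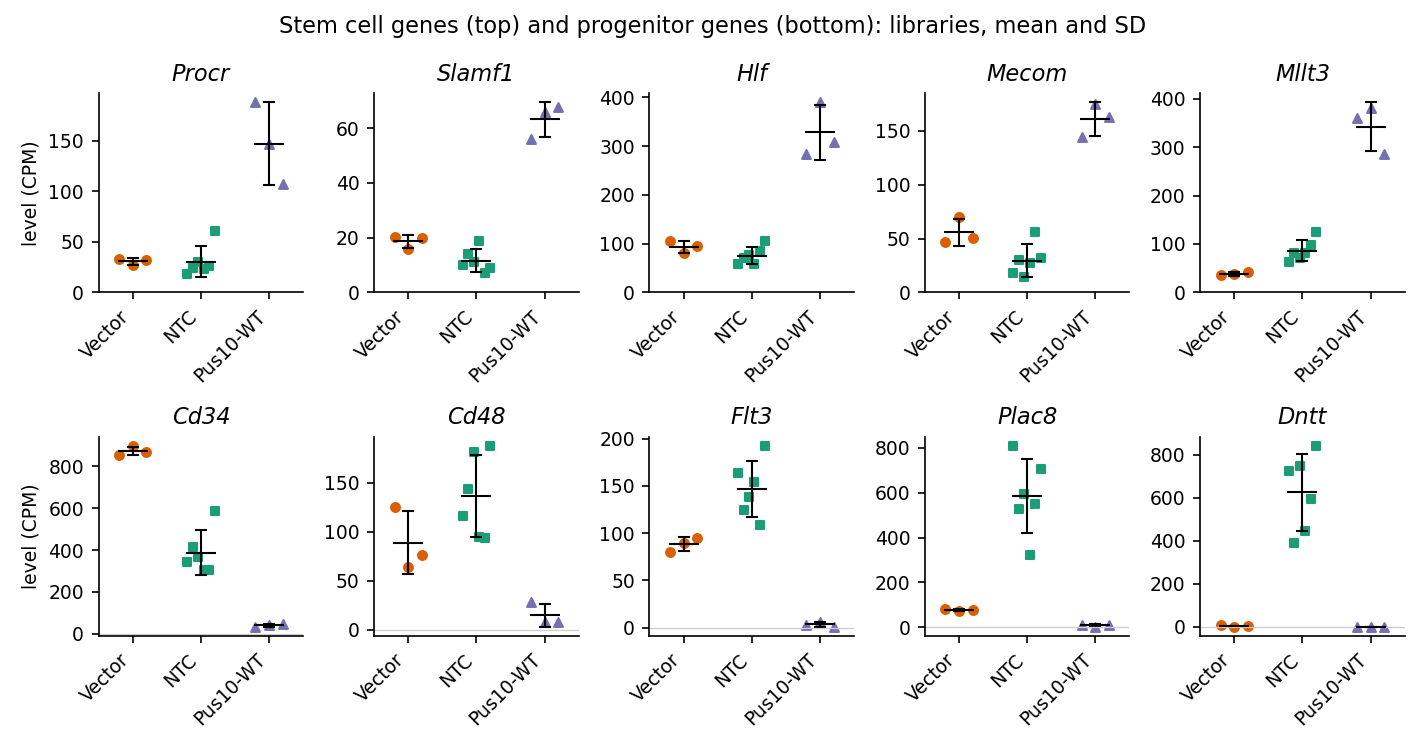
CPM of 10 genes (vertical axes, each starting at 0) in the Vector, NTC and Pus10-WT libraries, with 1 point per library and bars for the group mean and SD. Procr, Slamf1, Hlf, Mecom and Mllt3 are highest in Pus10-WT, and Cd34, Cd48, Flt3 and Plac8 lowest there.

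Transcription factors of stem cells were less one-sided. Of 26 tested, 9 were higher in Pus10-WT than in Vector and 2 lower (all genes 14.8% and 16.1%). Against NTC, 12 were higher in Pus10-WT and 3 lower (12.3% and 15.1%). Between Vector and NTC, 7 were higher in Vector and 9 in NTC (20.4% and 21.1%). The 2 lower in Pus10-WT than in Vector were 0 without Vector replicate 1 or Pus10-WT replicate 3, 1 without Pus10-WT replicate 1 and 4 with the GC correction. Hlf, a factor of stem cell maintenance, was at 106, 81 and 94.9 CPM in the Vector libraries, 57.2 to 104 (median 73.7) in NTC and 285, 391 and 308 in Pus10-WT. Pus10-WT lay above all others (NTC minus Pus10-WT -2.12 with SE 0.18 and edgeR adjusted p = 4.59e-06). Mecom, which encodes EVI1, was at 46.6, 69.9 and 50.8 CPM in Vector, 13.9 to 56.4 (median 28.8) in NTC and 144, 175 and 163 in Pus10-WT. Mllt3, a reader of acylated histones that keeps stem cells self-renewing in culture, was at 34.9, 37.5 and 42.2 CPM in Vector, 62.4 to 124 (median 81.4) in NTC and 361, 381 and 286 in Pus10-WT. Its order was Vector, NTC, Pus10-WT with no overlap (Vector minus Pus10-WT -3.16 with SE 0.24 and edgeR adjusted p = 2.48e-06).

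Some factors ran with NTC or with Vector. Meis1, a homeobox partner of the Hox proteins, was at 237, 257 and 257 CPM in the Vector libraries, 82.8 to 182 (median 122) in NTC and 368, 452 and 421 in Pus10-WT. NTC was lowest (Vector minus NTC 0.98 with SE 0.20 and edgeR adjusted p = 0.00164). Ikzf1, which encodes the lymphoid regulator Ikaros, was at 99.2, 90.9 and 93.1 CPM in Vector, 169.6 to 225 (median 197) in NTC and 101, 78.9 and 101 in Pus10-WT. NTC was highest (Vector minus NTC -1.06 with SE 0.12 and edgeR adjusted p = 1.83e-05, NTC minus Pus10-WT 1.07 with SE 0.12 and edgeR adjusted p = 3.92e-05). Runx1, Lyl1, Etv6, Erg, Bmi1 and Ikzf2 did not pass the test in any of the 3 comparisons.

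Genes known to rise in aged stem cells were high in Pus10-WT. Of 35 tested, 25 were higher in Pus10-WT than in Vector and 1 lower (all genes 14.8% and 16.1%). Against NTC, 29 were higher in Pus10-WT and 0 lower (12.3% and 15.1%, and 1 lower without NTC replicate 1 or 6). The median log2 differences were -2.72 for Vector minus Pus10-WT and -2.86 for NTC minus Pus10-WT. Vector and NTC differed at 15 of the genes, 11 higher in NTC and 4 in Vector (all genes 21.1% and 20.4%). No age is given in the labels used here, and several of these genes also mark long-term stem cells or the megakaryocyte lineage. The one gene lower in Pus10-WT than in Vector was Cd9, a tetraspanin, which was no longer called when any single Vector or Pus10-WT library was left out.

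Sult1a1 (chr7:126672865-126676432), a sulfotransferase, was at 4.48, 2.56 and 1.77 CPM in Vector, 1.64 to 40.05 (median 17.3) in NTC and 972, 848 and 618 in Pus10-WT. The 3 Pus10-WT libraries exceeded every other library (Vector minus Pus10-WT -8.11 with SE 0.94 and edgeR adjusted p = 4.61e-05, NTC minus Pus10-WT -5.58 with SE 0.62 and edgeR adjusted p = 3.51e-05). Aldh1a1, which oxidises retinaldehyde, was at 27.4, 35.9 and 27.3 CPM in the Vector libraries, 55.6 to 90.4 (median 62) in NTC and 326, 471 and 292 in Pus10-WT. Its groups stood in the order Vector, NTC, Pus10-WT with no overlap (Vector minus NTC -1.14 with SE 0.20 and edgeR adjusted p = 0.000532, Vector minus Pus10-WT -3.59 with SE 0.24 and edgeR adjusted p = 9.29e-07). Vwf, which encodes von Willebrand factor and marks platelet-biased stem cells, was at 12.6, 7.26 and 4.74 CPM in Vector, 3.28 to 66 (median 15.9) in NTC and 133, 115 and 179 in Pus10-WT. It overlapped between Vector and NTC and was higher in Pus10-WT (NTC minus Pus10-WT -2.70 with SE 0.71 and edgeR adjusted p = 0.0133). Summed over the list's genes, the level was 1323, 1367 and 1479 CPM in the Vector libraries, 1066 to 1514 (median 1318) in NTC and 5153, 5013 and 4446 in Pus10-WT. The platelet genes Pf4 and Gp9 did not share one order: Pf4, which encodes platelet factor 4, was at 141, 106 and 133 CPM in Vector, 19.2 to 125 (median 68.6) in NTC and 13.2, 23.4 and 32.4 in Pus10-WT. Gp9, a subunit of the platelet von Willebrand receptor, was at 31.8, 34.3 and 32.4 CPM in the Vector libraries, 11.2 to 38.3 (median 25.9) in NTC and 64.1, 70.2 and 43.7 in Pus10-WT.

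Multipotent progenitor genes were lowest in Pus10-WT. Of 15 tested, Cd34 among them, 8 were higher in Vector than in Pus10-WT and 0 lower (all genes 16.1% and 14.8%). The 0 became 1 without NTC replicate 4 or 6 or Pus10-WT replicate 2. Against Pus10-WT, 11 were higher in NTC and 2 lower (15.1% and 12.3%). The 2 became 1 with the GC correction or without any one of 10 libraries. Between Vector and NTC, 4 were higher in Vector and 6 in NTC (20.4% and 21.1%). Flt3 (chr5:147330741-147400489), a cytokine receptor of lymphoid and multipotent progenitors, was at 80.5, 89.2 and 94.8 CPM in Vector, 108 to 192 (median 146) in NTC and 2.82, 6.11 and 1.04 in Pus10-WT. Both other groups lay well above Pus10-WT, by 4.71 (SE 0.46, edgeR adjusted p = 1.35e-05) and 5.45 (SE 0.45, edgeR adjusted p = 4.11e-06) on the log2 scale, and differed from each other by -0.74 (SE 0.34, edgeR adjusted p = 0.0985), which was not called. Plac8, of early myeloid and lymphoid progenitors, was at 81.6, 73.6 and 79.1 CPM in Vector, 321 to 807 (median 572) in NTC and 12.6, 2.77 and 11.9 in Pus10-WT. Its order was NTC, Vector, Pus10-WT without overlap.

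Dntt, the terminal transferase of lymphoid progenitors, was at 6.27, 1.08 and 1.71 CPM in the Vector libraries, 392 to 840.0 (median 660.2) in NTC and 0 in all 3 Pus10-WT libraries. NTC exceeded Vector 207-fold (log2 Vector minus NTC -7.70 with SE 0.66 and edgeR adjusted p = 6.36e-06) and Pus10-WT at least 10482-fold, where the bound sets a group without a count at 3 counts over its libraries. Vector exceeded Pus10-WT at least 50.7-fold by the same rule. B cell, granulocyte and erythroid genes described below were also highest in NTC, and their part in the progenitor genes was not tested.

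Genes of DNA replication and mitosis were lowest in Pus10-WT. Of 32 tested genes of the G1/S list, 25 were higher in Vector and 29 higher in NTC than in Pus10-WT (all genes 16.1% and 15.1%). In both comparisons 0 were lower (1 lower in NTC without NTC replicate 2). Between Vector and NTC, 12 were higher in Vector and 4 in NTC (20.4% and 21.1%). Of 30 genes of the G2/M list, 28 were higher in Vector and 27 in NTC than in Pus10-WT (all genes 16.1% and 15.1%, and 17 for NTC without Pus10-WT replicate 1). Between Vector and NTC, 10 were higher in Vector (all genes 20.4%). In these comparisons 0 went the other way (1 higher in NTC than in Vector without Pus10-WT replicate 2). The 10 were 6 without Vector replicate 1 or NTC replicate 1, 2, 3 or 5, 5 without Vector replicate 2 or 3, and 20 without Pus10-WT replicate 2; the 4 of the G1/S list higher in NTC were 8 without Pus10-WT replicate 2 and 7 with DESeq2. Median log2 differences of the G2/M list were 1.00, 3.16 and 2.16 for Vector minus NTC, Vector minus Pus10-WT and NTC minus Pus10-WT.

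Summed over the G2/M genes, the level was 6191, 7815 and 7609 CPM in the Vector libraries, 3409.9 to 5503 (median 4251) in NTC and 752, 215 and 1764 in Pus10-WT, so Pus10-WT replicate 2 was the lowest and replicate 3 the highest of its group, and all 3 lay below the other 9. Ccne2, which encodes the cyclin that drives entry into S phase, was at 139, 162 and 160.1 CPM in Vector, 27.9 to 45 (median 34.4) in NTC and 12.4, 9.44 and 12.4 in Pus10-WT. Its groups stood in the order Vector, NTC, Pus10-WT (Vector minus NTC 2.15 with SE 0.17 and edgeR adjusted p = 1.05e-06, NTC minus Pus10-WT 1.60 with SE 0.20 and edgeR adjusted p = 7.26e-05). Mcm6, a subunit of the replicative helicase, was at 1137, 1287 and 1119 CPM in Vector, 452 to 571 (median 513) in NTC and 311, 208 and 373 in Pus10-WT in the same order. Prc1, which bundles microtubules of the dividing spindle, was at 146, 202 and 211 CPM in the Vector libraries, 35.7 to 77.1 (median 45.1) in NTC and 11, 3.11 and 19.5 in Pus10-WT (Vector minus Pus10-WT 4.05 with SE 0.52 and edgeR adjusted p = 9.57e-05).

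Not every cycle gene was highest in Vector. Cdk6, the kinase that carries stem cells out of quiescence, was at 958, 931 and 947 CPM in Vector, 1558 to 2042 (median 1683) in NTC and 507, 331 and 626 in Pus10-WT. All 6 NTC libraries were highest (Vector minus NTC -0.87 with SE 0.16 and edgeR adjusted p = 0.000686). Mki67, chosen after its values were seen because it is the common marker of dividing cells, was at 138, 171 and 175 CPM in Vector, 268 to 424 (median 369) in NTC and 37.5, 3.0 and 76.6 in Pus10-WT. Its Vector minus NTC was -1.14 (SE 0.59, edgeR adjusted p = 0.14), not called. Txnip, a thioredoxin inhibitor of quiescent stem cells, ran against the cycle genes: 191, 208 and 213 CPM in the Vector libraries, 174 to 429 (median 261) in NTC and 1241, 1498 and 1266 in Pus10-WT. Pus10-WT was highest (Vector minus Pus10-WT -2.71 with SE 0.26 and edgeR adjusted p = 1.3e-05, NTC minus Pus10-WT -2.27 with SE 0.20 and edgeR adjusted p = 7.02e-06). Of the 19 tested quiescence and inhibitor genes, 7 were higher in Vector than in NTC and 4 lower (all genes 20.4% and 21.1%). Between Vector and Pus10-WT, 5 were called each way (16.1% higher in Vector and 14.8% in Pus10-WT over all genes).

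The cholesterol pathway set Vector apart. Sterol genes are known to be switched on together by the factor SREBP2 when a cell runs short of cholesterol, through sterol regulatory elements that often lie next to CCAAT boxes bound by the factor NF-Y. Of 19 genes tested, 17 were higher in Vector than in NTC and 0 lower (all genes 20.4% and 21.1%). Against Pus10-WT, 17 were higher in Vector and 0 lower (16.1% and 14.8%). The medians were 2.94 and 2.47 on the log2 scale, against 0.20 for NTC minus Pus10-WT. There 2 were called higher in NTC and 1 in Pus10-WT (all genes 15.1% and 12.3%, and 0 to 4 and 1 to 2 with any library left out). These 2 counts of 17 were 13 to 17 and 13 to 19 with any library left out, and 18 and 19 with the GC correction. The list's summed level was 3248, 3981 and 3186 CPM in the Vector libraries, 448 to 509 (median 466) in NTC and 531, 443 and 508 in Pus10-WT.

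The promoters of 3 genes with large differences are shown for the CCAAT motif they share and for a sterol element found in Hmgcs1 alone. They are RefSeq windows of GRCm38.p6 from 250 bases before to 50 after the start of transcription, written 5′ to 3′ on the gene's strand, and capitals mark CCAAT on either strand (ATTGG when read on the other) and TCACNCCAC, a form of the sterol regulatory element. Hmgcs1 is at chr13:119690101-119690400 on the plus strand, Idi1 at chr13:8885356-8885655 on the plus strand and Msmo1 at chr8:64733529-64733828 on the minus strand.
Hmgcs1: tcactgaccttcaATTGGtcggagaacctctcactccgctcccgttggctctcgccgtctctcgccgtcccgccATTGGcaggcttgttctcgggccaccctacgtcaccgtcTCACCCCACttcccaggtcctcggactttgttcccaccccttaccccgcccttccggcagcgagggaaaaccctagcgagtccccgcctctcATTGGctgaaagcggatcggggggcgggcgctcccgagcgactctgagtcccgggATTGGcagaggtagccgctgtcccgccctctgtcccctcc
Idi1: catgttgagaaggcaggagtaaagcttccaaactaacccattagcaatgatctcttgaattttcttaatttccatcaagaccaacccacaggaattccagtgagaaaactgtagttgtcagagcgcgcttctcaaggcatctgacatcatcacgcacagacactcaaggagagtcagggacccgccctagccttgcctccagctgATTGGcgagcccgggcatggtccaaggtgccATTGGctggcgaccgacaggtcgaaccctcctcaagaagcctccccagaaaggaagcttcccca
Msmo1: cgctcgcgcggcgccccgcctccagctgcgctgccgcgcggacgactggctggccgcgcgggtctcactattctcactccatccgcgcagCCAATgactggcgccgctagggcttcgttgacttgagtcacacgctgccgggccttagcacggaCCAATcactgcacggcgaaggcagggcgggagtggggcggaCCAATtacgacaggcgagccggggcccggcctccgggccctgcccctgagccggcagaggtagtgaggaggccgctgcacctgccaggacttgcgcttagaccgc
Hmgcs1 holds 4 CCAAT matches and 1 match to TCACNCCAC, Idi1 2 CCAAT matches and Msmo1 3. CCAAT was found in all 13 genes of the list with a window in the table (13 of 16 windows), against 37.4% of 32851 promoter windows of the same length. TCACNCCAC was found in 1 of the 13 genes, Hmgcs1, and in 1.24% of all windows. The other 6 motifs searched on both strands, TCACCCCAC (contained in TCACNCCAC), CACNCCAC (likewise contained in it), ATCACNCCA, TCACNNCAC, TTCNNTTTC and TCACNCGA, matched 0 to 3 of the 13 genes. A match describes letters in the window and does not show that a factor was bound.

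Along the pathway, Hmgcs1 (chr13:119690379-119708260), which makes HMG-CoA, was at 216, 301 and 189 CPM in Vector, 14.7 to 45.1 (median 22.1) in NTC and 11.6, 11 and 15.9 in Pus10-WT. The lowest Vector library was more than 4 times the highest NTC library (Vector minus NTC 3.15 with SE 0.30 and edgeR adjusted p = 4.16e-06, Vector minus Pus10-WT 4.20 with SE 0.40 and edgeR adjusted p = 1.25e-05). It is named here for its place in the pathway, after its values were seen. Idi1 (chr13:8885501-8892451), the isomerase that makes dimethylallyl diphosphate, was at 237, 296 and 263 CPM in Vector, 3.39 to 14.6 (median 5.83) in NTC and 13.6, 2.32 and 6.92 in Pus10-WT. This is 37.2-fold higher in Vector than in NTC (log2 5.22 with SE 0.47 and edgeR adjusted p = 2.82e-06) and 34.9-fold higher than in Pus10-WT (log2 5.12 with SE 0.62 and edgeR adjusted p = 5.96e-05).

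In the later steps, Sqle, which adds the first oxygen to squalene, was at 285, 427 and 311 CPM in the Vector libraries, 18.9 to 39.7 (median 33.8) in NTC and 70.1, 30.7 and 53.2 in Pus10-WT. Cyp51, the lanosterol demethylase, was at 404, 418 and 333 CPM in Vector, 15.4 to 41 (median 24.9) in NTC and 21.5, 14 and 9.60 in Pus10-WT, with no overlap between Vector and the 9 other libraries. Msmo1 (chr8:64718139-64733792), a sterol C4 methyl oxidase, was at 592, 719 and 602 CPM in Vector, 27.1 to 47.3 (median 39.9) in NTC and 34, 30.7 and 23.6 in Pus10-WT, 16.7-fold higher in Vector than in NTC (log2 4.06 with SE 0.18 and edgeR adjusted p = 1.25e-08) and 21.7-fold higher than in Pus10-WT (log2 4.44 with SE 0.23 and edgeR adjusted p = 1.47e-07), while NTC minus Pus10-WT was 0.38 (SE 0.18, edgeR adjusted p = 0.148). Insig1, which holds SREBP in the endoplasmic reticulum and is itself one of its targets, was at 227, 270.0 and 229.7 CPM in the Vector libraries, 17.2 to 27.8 (median 20.8) in NTC and 52.1, 49.5 and 50.1 in Pus10-WT, the one gene of the list called higher in Pus10-WT than in NTC (-1.22 with SE 0.15 and edgeR adjusted p = 7.89e-05).

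**Figure D4:**
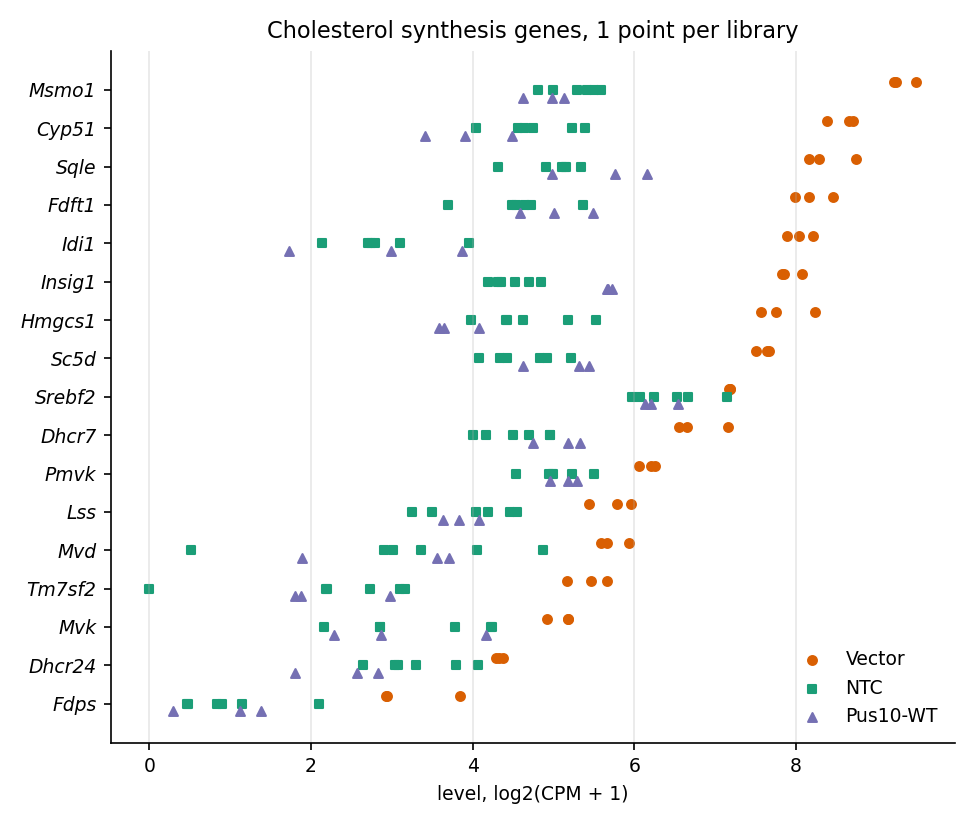
Level of 17 of the 19 cholesterol synthesis genes as log2(CPM + 1) (horizontal axis), 1 row per gene and 1 point per library, coloured by control group. For genes such as Msmo1, Idi1, Cyp51 and Insig1 the 3 Vector points lie to the right of all other libraries.

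Called genes of the unfolded protein and integrated stress response were higher in Vector. Of 23 tested, 10 were higher in Vector than in NTC and 0 lower (all genes 20.4% and 21.1%, and 1 lower without Vector replicate 2). Against Pus10-WT, 8 were higher in Vector and 0 lower (16.1% and 14.8%). The 8 became 5 without Vector replicate 2 or with library size scaling. The 0 became 1 without Vector replicate 2 or any one of NTC replicates 1, 4, 5 and 6. Psat1, of serine synthesis, was at 336, 371 and 342 CPM in Vector, 121 to 196 (median 154) in NTC and 113, 92.1 and 116 in Pus10-WT (Vector minus Pus10-WT 1.71 with SE 0.17 and edgeR adjusted p = 1.72e-05). Of 15 tested p53 targets, 5 were higher in Vector than in NTC and 1 lower (all genes 20.4% and 21.1%). The 1 was 0 with the GC correction or without any one of 7 libraries. Against Pus10-WT, 7 were higher in Vector and 0 lower (16.1% and 14.8%). The 7 became 4 with library size scaling or without any one Vector library or Pus10-WT replicate 2 or 3. Ccng1, a cyclin induced by p53, was at 315, 281 and 398 CPM in Vector, 36.5 to 69.5 (median 61.1) in NTC and 55.3, 56.3 and 69.2 in Pus10-WT. Vector lay above the rest (Vector minus NTC 2.53 with SE 0.18 and edgeR adjusted p = 4.39e-07).

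Of 24 glycolysis genes, 12 were higher in Vector than in NTC and 2 lower (all genes 20.4% and 21.1%). Between Vector and Pus10-WT 6 were higher in Vector and 2 in Pus10-WT (all genes 16.1% and 14.8%), with a median log2 difference of 0.12. The 2 became 5 with DESeq2, 4 with library size scaling, a filter at 10 CPM or without NTC replicate 6, and 1 with the GC correction, and the median -0.10 with library size scaling. Against Pus10-WT, NTC was lower at 9 and higher at 2 (all genes 12.3% and 15.1%, and 5 lower without Pus10-WT replicate 1 or 2). Ldhb, a subunit of lactate dehydrogenase, was at 199.7, 183 and 159 CPM in the Vector libraries, 32.1 to 68.1 (median 55.6) in NTC and 276, 346 and 250.1 in Pus10-WT. Hk1, the hexokinase that starts the pathway, went the other way: 21.2, 21.9 and 20.8 CPM in Vector, 136 to 247 (median 205) in NTC and 69.2, 84.8 and 96.6 in Pus10-WT (Vector minus NTC -3.21 with SE 0.21 and edgeR adjusted p = 2.9e-07). Gapdh has many processed pseudogenes, and its level of 135, 136 and 133 CPM in Vector, 34.9 to 69.1 (median 43.2) in NTC and 20.6, 19.3 and 19.2 in Pus10-WT is uncertain.

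**Figure D5:**
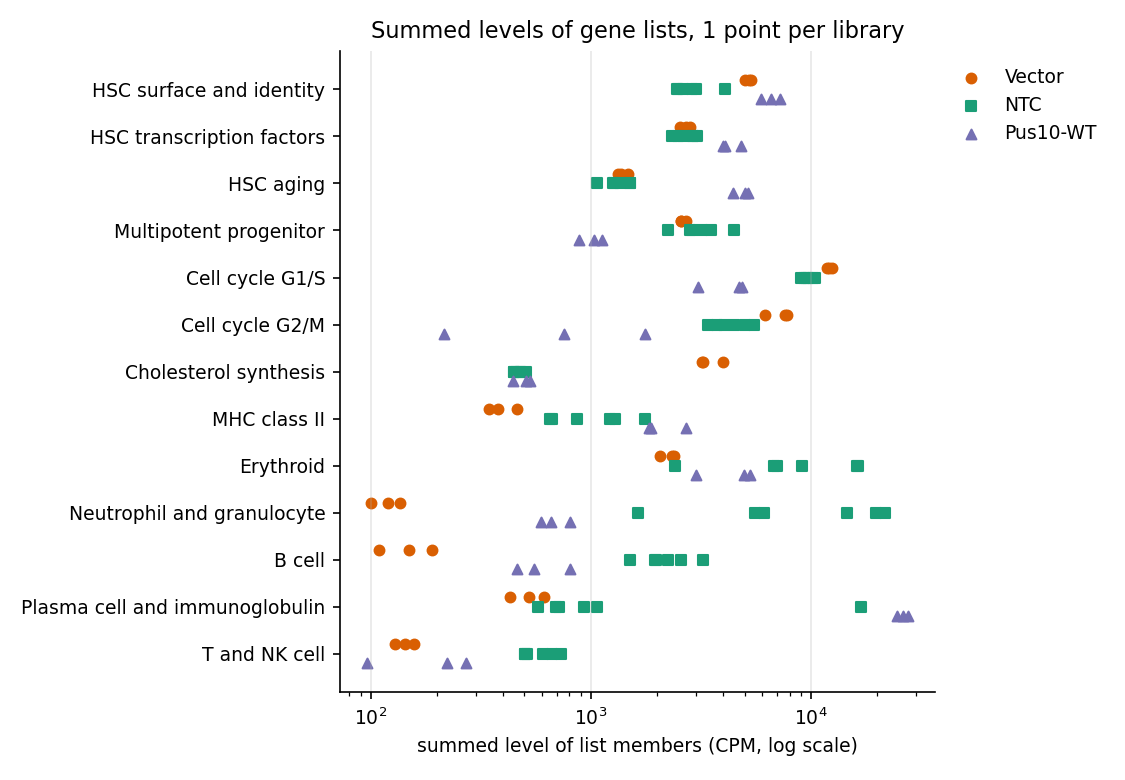
Summed CPM (log axis) of 13 gene lists in each of the 12 control libraries, 1 point per library, coloured by group. Cholesterol synthesis is highest in the 3 Vector libraries, B cell and neutrophil genes in NTC, and plasma cell genes in Pus10-WT together with NTC replicate 5.

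B lymphoid transcripts marked NTC. Of 18 genes tested on the B cell list, 14 were higher in NTC than in Vector and 0 lower (all genes 21.1% and 20.4%). Against Pus10-WT, 12 were higher in NTC and 1 lower (15.1% and 12.3%, and 0 lower without Pus10-WT replicate 2). The median log2 differences, with groups at 0 set to their bound, were -8.55 for Vector minus NTC and 5.25 for NTC minus Pus10-WT. Igll1 (chr16:16860671-16863985), part of the surrogate light chain of pre-B cells, was at 0 CPM in all 3 Vector libraries, 355 to 839 (median 529.5) in NTC and 0 in all 3 Pus10-WT libraries, at least 20223-fold higher in NTC than in Vector and at least 9474-fold higher than in Pus10-WT. Pax5 (chr4:44524757-44710487), the factor that commits cells to the B lineage, was at 0 CPM in all 3 Vector libraries, 47.6 to 97.8 (median 53.3) in NTC and 0 in all 3 Pus10-WT libraries, at least 2223-fold and 1042-fold higher. Cd79a, a signalling chain of the B cell receptor, was at 0 CPM in all 3 Vector libraries, 243 to 512 (median 312) in NTC and 29.1, 33.6 and 36.9 in Pus10-WT. It was present in Pus10-WT too (NTC minus Pus10-WT 3.35 with SE 0.25 and edgeR adjusted p = 6.67e-06).

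All 6 NTC libraries carried these transcripts. The summed level of the list was 191, 149 and 109 CPM in the Vector libraries, 1512 to 3221 (median 2111) in NTC and 464, 808 and 552 in Pus10-WT, and 10 of its genes were at 0 in every Vector library, 4 in every Pus10-WT library and 0 in every NTC library. Dntt and Igll1 belong to early B cell progenitors, whereas Ms4a1, which encodes CD20 of mature B cells, was at 0 CPM in all 3 Vector libraries, 0 to 7.05 (median 0) in NTC and 3.86, 3.68 and 2.02 in Pus10-WT.

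Immunoglobulin transcripts followed another pattern. The plasma cell list summed to 611, 524 and 430.3 CPM in the Vector libraries, 578 to 16922 (median 827) in NTC and 27654, 24532 and 26069 in Pus10-WT, and the NTC libraries other than replicate 5 stayed between 578 and 1066 CPM. Igkc, the kappa light chain constant region, was at 0 CPM in all 3 Vector libraries, 0 to 9467 (median 1.53) in NTC and 9339.7, 12506 and 11136 in Pus10-WT, with NTC replicate 5 the highest. Jchain, which joins IgM and IgA into polymers, was at 0 in the Vector libraries and in 5 NTC libraries, at 1039 CPM in NTC replicate 5 and at 3684, 1315 and 925 CPM in Pus10-WT. Ighm, the mu heavy chain, was at 60.02, 41.4 and 60.4 CPM in Vector, 444 to 6074 (median 625) in NTC and 4982, 10016 and 13448 in Pus10-WT. Of 15 genes tested, 8 were higher in Pus10-WT than in Vector (all genes 14.8%, and 5 without Vector replicate 1 or 3, or with a filter at 10 CPM). Against NTC, 3 were higher in Pus10-WT and 1 lower (all genes 12.3% and 15.1%, and 7 higher without NTC replicate 5).

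The knockout libraries of the same experiment did not share the immunoglobulin level of their controls: Igkc was at 0.506 to 13.9 CPM over the 3 Pus10-KO libraries and Jchain at 0.156 to 3.44. Over the 6 miR139-KD libraries Igkc ranged from 1.85 to 9494 CPM. Sdc1, which encodes the plasma cell marker CD138, was at 8.36, 6.95 and 12.7 CPM in the Vector libraries, 4.31 to 21.6 (median 6.72) in NTC and 26.8, 9.78 and 5.74 in Pus10-WT and did not follow Igkc. Immunoglobulin segments resemble each other, so counts of single segments are uncertain.

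Granulocyte genes were high in NTC and uneven within it. Of 19 tested, 17 were higher in NTC than in Vector (all genes 21.1%, and 11 without Vector replicate 2). Against Pus10-WT, 13 were higher in NTC (all genes 15.1%, and 8 without Pus10-WT replicate 2). In both comparisons 0 were lower in NTC (1 lower than in Pus10-WT with the GC correction or without NTC replicate 1). The list summed to 101, 120.5 and 136 CPM in the Vector libraries, 1641 to 21750.0 (median 10344) in NTC and 663, 801 and 592 in Pus10-WT, and NTC replicate 3 was the lowest of its group.

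Within NTC, genes of early and late granules did not share the same low libraries. Ngp, Camp, Ltf and Lcn2, whose products fill the late granules of maturing neutrophils, were at 0 in replicate 3, and Ngp was at 1298 to 4155 CPM and Camp at 669 to 3981 CPM in the other 5. Elane, the elastase of early granules, was at 268 CPM in replicate 3 and at 0 and 0.0712 CPM in replicates 2 and 4. Mpo, the myeloperoxidase of early granules, was likewise lower in replicates 2 and 4 (50.4 and 73.2 CPM) than in replicate 3 (567 CPM). Across groups Mpo was at 0.913, 3.17 and 3.71 CPM in Vector, 50.4 to 1129 (median 370.0) in NTC and 0.0576, 0.0566 and 0 in Pus10-WT. S100a9, the partner of S100a8, was at 0 CPM in all 3 Vector libraries, 4.75 to 3443 (median 1431) in NTC and 0.806, 0.113 and 0.979 in Pus10-WT. Prtn3, an early granule protease, was the exception in being high in Pus10-WT as well, at 57.8, 87.4 and 81.2 CPM in the Vector libraries, 165 to 588 (median 355) in NTC and 591, 727 and 492 in Pus10-WT. This was called for Vector minus Pus10-WT (-3.0 with SE 0.39 and edgeR adjusted p = 0.000101) but not for NTC minus Pus10-WT (-0.75 with SE 0.31 and edgeR adjusted p = 0.0869).

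Erythroid genes were low in Vector. Of 17 tested, 12 were higher in NTC than in Vector and 0 lower (all genes 21.1% and 20.4%). Against Vector, 8 were higher in Pus10-WT and 1 lower (14.8% and 16.1%, and 2 lower without NTC replicate 6). Against Pus10-WT, 2 were higher in NTC (all genes 15.1%). The last count was 6 without NTC replicate 6, 1 without Pus10-WT replicate 2 and 7 with DESeq2. The list summed to 2383, 2053 and 2349 CPM in the Vector libraries, 2413 to 16387 (median 8046) in NTC and 4946, 3004 and 5306 in Pus10-WT, and NTC replicate 6 was the lowest of its group. Klf1, the erythroid master factor, was at 1.18, 0.0235 and 2.23 CPM in Vector, 81.6 to 523 (median 359) in NTC and 144, 1.19 and 157 in Pus10-WT. Car1, the carbonic anhydrase of red cells, was at 0 CPM in all 3 Vector libraries, 543 to 3009 (median 2239) in NTC and 991, 2.94 and 1339.8 in Pus10-WT, at least 73785-fold higher in NTC and 27877-fold higher in Pus10-WT than in Vector. For both genes Pus10-WT replicate 2 was 2 orders or more below its group, and it also had the lowest sum of G2/M genes.

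Markers of T and NK cells had their highest sums in NTC. Of 12 tested, 8 were higher in NTC than in Vector (all genes 21.1%, and 3 and 4 without Vector replicate 1 and 3). Against Vector, 6 were higher in Pus10-WT (14.8%, and 2 without any one Vector library). Against Pus10-WT, 3 were higher in NTC (15.1%). Summed levels were 143, 158 and 129 CPM in the Vector libraries, 501 to 735 (median 561) in NTC and 272, 223 and 96.3 in Pus10-WT. Il7r, a cytokine receptor of lymphoid progenitors and T cells, was at 0 CPM in all 3 Vector libraries, 19.9 to 52.6 (median 35.9) in NTC and 13.5, 11.2 and 1.57 in Pus10-WT. The monocyte and dendritic list gave 7 of 17 higher in NTC than in Vector (all genes 21.1%, and 11 with DESeq2, 3 with a filter at 10 CPM). Lyz2, a lysozyme of myeloid cells, was at 555, 465 and 521 CPM in Vector, 384 to 2068 (median 780.4) in NTC and 729, 689 and 510.0 in Pus10-WT and Csf1r, the M-CSF receptor, at 3.27, 3.34 and 2.84 CPM in Vector, 0 to 18.4 (median 4.66) in NTC and 0, 7.63 and 0 in Pus10-WT. How much of the difference between groups in other genes goes with these lineage transcripts was not tested.

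Antigen presentation genes were highest in Pus10-WT. Of 17 MHC class I pathway genes, 10 were higher in Pus10-WT than in Vector and 2 lower (all genes 14.8% and 16.1%). Against NTC, 10 were higher in Pus10-WT and 1 lower (12.3% and 15.1%, and 0 to 2 lower with any library left out). Vector and NTC split 6 to 6 (20.4% and 21.1%, and 3 higher in Vector without Vector replicate 2). H2-D1, a classical class I heavy chain, was at 2016, 2068 and 1995 CPM in the Vector libraries, 1846 to 2478 (median 1967) in NTC and 4517, 4781 and 4111 in Pus10-WT, and H2-K1, the other, at 1491, 1492 and 1421 CPM in Vector, 2184 to 3054 (median 2311) in NTC and 4319.6, 4790.3 and 4028 in Pus10-WT. Of 10 MHC class II genes, 6 were higher in Pus10-WT than in Vector and 0 lower (all genes 14.8% and 16.1%). Against NTC, 4 were higher in Pus10-WT and 1 lower (12.3% and 15.1%, and 2 higher without Pus10-WT replicate 2). Against Vector, 4 were higher in NTC (all genes 21.1%). H2-Aa, a class II alpha chain, was at 5.12, 7.16 and 3.10 CPM in Vector, 65.8 to 271 (median 155) in NTC and 374, 573 and 378 in Pus10-WT. Its order was Vector, NTC, Pus10-WT without overlap (Vector minus Pus10-WT -6.42 with SE 0.60 and edgeR adjusted p = 1.12e-05, NTC minus Pus10-WT -1.51 with SE 0.40 and edgeR adjusted p = 0.013). Reads of these near-identical chains may be split between them.

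Interferon response genes that were called against Pus10-WT were higher in Pus10-WT. Of 35 tested, 16 were higher there than in NTC and 0 lower (all genes 12.3% and 15.1%, and 1 lower without NTC replicate 4 or Pus10-WT replicate 3). Between Vector and Pus10-WT 8 were higher in Pus10-WT and 0 lower (14.8% and 16.1%, and 1 lower with the GC correction). The 8 became 17 with library size scaling or DESeq2, 15 with a filter at 10 CPM or at equal depth, and 14 without NTC replicate 6. Vector and NTC were closer, with 10 higher in Vector and 5 in NTC (20.4% and 21.1%). The median log2 differences were -0.80 for NTC minus Pus10-WT, -0.86 for Vector minus Pus10-WT and 0.23 for Vector minus NTC. Irgm1, an interferon-induced GTPase, was at 201, 191 and 196 CPM in the Vector libraries, 52.3 to 92.9 (median 71.1) in NTC and 225, 192 and 232 in Pus10-WT. It overlapped between Vector and Pus10-WT and was low in NTC (Vector minus NTC 1.49 with SE 0.16 and edgeR adjusted p = 9.15e-06, NTC minus Pus10-WT -1.63 with SE 0.16 and edgeR adjusted p = 1.07e-05). Ifitm1 and Ifitm3 stand on this list and on that of stem cell surface genes. Bst2, which encodes tetherin, was at 68.2, 67.5 and 65 CPM in Vector, 120.2 to 176 (median 134) in NTC and 126, 156 and 171 in Pus10-WT.

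Immediate early genes, which respond within minutes to growth factors and stress, were mixed. Of 21, 7 were higher in Vector than in NTC and 5 higher in NTC (all genes 20.4% and 21.1%). The 7 became 4 without Vector replicate 2 or 3. The 5 became 3 without any one Vector library and 2 with the GC correction. Egr1, a quiescence factor that is also an immediate early gene, was at 219, 183 and 174 CPM in Vector, 0.145 to 15.6 (median 6.15) in NTC and 24.6, 24.5 and 28.5 in Pus10-WT (Vector minus NTC 4.72 with SE 0.83 and edgeR adjusted p = 0.000568); it was chosen after its values were seen. Jund, a subunit of AP-1, was at 1.30, 1.41 and 0.968 CPM in the Vector libraries, 9.05 to 23 (median 14.1) in NTC and 0.921, 1.75 and 4.31 in Pus10-WT, with the reverse order between Vector and NTC (-3.64 with SE 0.59 and edgeR adjusted p = 0.000317). Id1, an inhibitor of helix-loop-helix factors and target of BMP signals, was at 73.1, 78.3 and 61.5 CPM in Vector, 1.12 to 5.36 (median 3.20) in NTC and 0.979, 0.509 and 1.70 in Pus10-WT. Vector lay far above the others (Vector minus Pus10-WT 6.06 with SE 0.66 and edgeR adjusted p = 3.14e-05).

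Genes of translation and of respiration did not share one order of the groups. Of 77 cytosolic ribosomal protein genes tested, 71 were higher in NTC than in Vector and 2 lower (all genes 21.1% and 20.4%). Against Vector, 48 were higher in Pus10-WT and 3 lower (14.8% and 16.1%). Against Pus10-WT, 65 were higher in NTC and 3 lower (15.1% and 12.3%). The counts of 3 were 0 to 5 with any library left out, and the medians were -1.02, -0.45 and 0.64. With the GC correction the 71 became 63 and the 48 became 34, with 6 and 10 higher in Vector, and with library size scaling the 48 became 56. Rpl13, of the large subunit, was at 2173, 2077 and 2091 CPM in Vector, 4744 to 5205 (median 4957) in NTC and 3738, 3931 and 3598 in Pus10-WT, with no overlap between groups. Of 78 nuclear genes of oxidative phosphorylation, 61 were higher in Vector and 58 in NTC than in Pus10-WT (all genes 16.1% and 15.1%). Lower were 0 and 1 (all genes 14.8% and 12.3%, and 2 in NTC without NTC replicate 3). Vector and NTC split 23 to 26 (all genes 20.4% and 21.1%), and 31 to 15 with the GC correction, whose median turned from -0.08 to 0.19. Without Vector replicate 2 the 23 became 14, and without Vector replicate 2 and 3 the 26 became 17 and 16. Cox5a, a subunit of cytochrome c oxidase, was at 140.3, 136 and 128 CPM in the Vector libraries, 203 to 244 (median 217) in NTC and 37.8, 37.2 and 44.1 in Pus10-WT. Pus10-WT was lowest (NTC minus Pus10-WT 2.49 with SE 0.11 and edgeR adjusted p = 7.77e-08).

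Malat1 (chr19:5795690-5802672), a long noncoding RNA held in nuclear speckles, was among the clearest single differences. It was at 185, 183 and 209 CPM in Vector, 1662 to 2023 (median 1865) in NTC and 1346, 1175 and 1234 in Pus10-WT, with log2 differences of -3.28 (SE 0.09, edgeR adjusted p = 6.93e-10) and -2.70 (SE 0.10, edgeR adjusted p = 1.16e-08) for Vector minus NTC and Vector minus Pus10-WT. The PUS10-OE libraries of the same experiment as Vector had a mean of 413 CPM. The 23 tested genes of the nuclear RNA and splicing list, Malat1 among them, split 7 to 10 between Vector and NTC (all genes 20.4% and 21.1%, and 4 higher in Vector with the GC correction). Ddx5, an RNA helicase, went against Malat1 at 3243, 3522 and 3424 CPM in Vector, 799 to 1086 (median 929) in NTC and 1746, 1658 and 1374 in Pus10-WT. Mycn, a Myc family factor of stem cells, was at 132, 130.4 and 128 CPM in the Vector libraries, 20.2 to 89.3 (median 55) in NTC and 332, 415 and 433 in Pus10-WT. It was highest in Pus10-WT, where 13 of 23 genes of ribosome biogenesis were nevertheless lower than in NTC and 1 higher (all genes 15.1% and 12.3%).

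Imprinted genes that were called lay mostly low in NTC. Of 12 tested, 8 were higher in Pus10-WT than in NTC and 1 lower (all genes 12.3% and 15.1%, and 5 higher without Pus10-WT replicate 2). Between Vector and NTC, 6 were higher in Vector and 2 in NTC (20.4% and 21.1%). With a filter at 10 CPM the 6 and the 2 became 3 and 4, and the median of Vector minus NTC turned from 2.34 to -0.50. The 2 were 4 with DESeq2 or a fit over all 24 libraries, and 1 without any one Vector library. Ndn, which encodes necdin and is known in quiescent stem cells, was at 36.6, 41.6 and 34.4 CPM in Vector, 0 to 3.63 (median 0) in NTC and 139, 109 and 112 in Pus10-WT, called for Vector minus NTC (5.31 with SE 0.95 and edgeR adjusted p = 0.00063) and NTC minus Pus10-WT (-6.99 with SE 0.99 and edgeR adjusted p = 0.000231). Sgce, expressed from the paternal copy, was at 52.8, 52.7 and 47.4 CPM in Vector, 0.314 to 10.7 (median 3.01) in NTC and 40.9, 39.8 and 36 in Pus10-WT. Snrpn, of the same imprinted domain as Ndn, was at 5.12, 6.76 and 7.91 CPM in the Vector libraries, 0 in all 6 NTC libraries and 5.07, 6.05 and 3.0 in Pus10-WT, at least 171-fold and 122-fold lower in NTC.

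Genes set apart from both other groups, with libraries that did not overlap, numbered 1579 high in Vector (10.2%) and 1345 low (8.72%), 979 high in NTC (6.35%) and 839 low (5.44%), and 491 high in Pus10-WT (3.18%) and 857 low (5.56%). Besides Idi1, Msmo1 and Id1, those most above in Vector included Akr1c12, an aldo-keto reductase, at 86.5, 71.3 and 116 CPM in Vector, 0 to 2.56 (median 1.33) in NTC and 0.173, 1.87 and 2.87 in Pus10-WT, and Mlf1, a myeloid leukemia factor, at 23.4, 26.7 and 21 CPM in Vector, 0 to 0.235 (median 0) in NTC and 0, 0 and 0.196 in Pus10-WT. Those most below in NTC included Map1b, a microtubule-associated protein, at 3.80, 8.57 and 7.65 CPM in the Vector libraries, 0 in all 6 NTC libraries and 14.6, 21.3 and 12.2 in Pus10-WT. In Pus10-WT the highest were Cldn5, given above, and Rorb, a nuclear receptor, at 0 CPM in all 3 Vector libraries, 0 in all 6 NTC libraries and 18.9, 20.2 and 10.1 in Pus10-WT, and the lowest included Bex6 at 64.3, 64.7 and 51.2 CPM in Vector, 39.2 to 71.9 (median 49.8) in NTC and 0 in all 3 Pus10-WT libraries, at least 1008-fold below Vector and 902-fold below NTC. Cldn5 had a mean of 57.7 CPM in Pus10-KO.

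Pus10 (chr11:23665674-23732876), the gene the 3 experiments turn on, was itself uneven between the controls. It was at 60.1, 105 and 91.1 CPM in the Vector libraries, 26.3 to 42.9 (median 39.7) in NTC and 18.1, 28.5 and 31.2 in Pus10-WT. Vector was above NTC by 1.20 (SE 0.23, edgeR adjusted p = 0.000917) and above Pus10-WT by 1.72 (SE 0.28, edgeR adjusted p = 0.000472) on the log2 scale, and NTC minus Pus10-WT was 0.52 (SE 0.24, edgeR adjusted p = 0.132), not called. Of 14 pseudouridine synthases and partners tested, Pus10 among them, 2 were higher and 2 lower in Vector than in NTC (all genes 20.4% and 21.1%). Against Pus10-WT, 4 were higher in Vector and 2 lower (all genes 16.1% and 14.8%, and 1 lower with the GC correction). The counts of 2 were 1 to 4 with any library left out. Gar1, a core protein of the box H/ACA particles that guide pseudouridine synthesis, was at 6.54, 7.94 and 7.29 CPM in Vector, 57.7 to 90.04 (median 66) in NTC and 27.6, 40.9 and 34.9 in Pus10-WT. Vector was lowest (Vector minus NTC -3.28 with SE 0.23 and edgeR adjusted p = 3.84e-07).

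The treated libraries of the 3 experiments share no library with the controls and were fitted on their own. PUS10-OE and miR139-KD differed at 6144 of 15123 genes (40.6%), PUS10-OE and Pus10-KO at 4675 (30.9%) and miR139-KD and Pus10-KO at 3694 (24.4%). Of the control calls that were tested in both fits, 98.1%, 98.4% and 95.7% had the same sign between the matching treated groups, against 76.4%, 78.3% and 71.6% of genes not called. By comparison, the treated groups differed from their own controls at 0 of 14321 genes for Vector (0.00%, 1176 at an unadjusted p under 0.05), 348 of 12862 for NTC (2.71%) and 8 of 14166 for Pus10-WT (0.0565%) in edgeR fits within each experiment. The genes set apart had the same sign in both treated comparisons at 1565 of 1573 tested there for high in Vector and 1316 of 1342 for low. For NTC this held at 903 of 956 and 796 of 835, and for Pus10-WT at 454 of 470 and 812 of 854. Called in both were 1191, 936, 537, 471, 277 and 563 of them, against 10.8%, 11.0%, 6.10%, 6.57%, 3.48% and 6.26% of all genes tested there. Each treated group comes from the same experiment as its control, so this agreement cannot part group from experiment.

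Cholesterol, G2/M and aging genes were followed into the treated libraries as a description. The 19 cholesterol genes had a median of 2.67 for PUS10-OE minus miR139-KD (17 positive) and 3.01 for PUS10-OE minus Pus10-KO (19 positive). Msmo1 had means of 756, 43 and 33.9 CPM in PUS10-OE, miR139-KD and Pus10-KO. The 30 G2/M genes had medians of 0.88, 3.71 and 2.66 for PUS10-OE minus miR139-KD, PUS10-OE minus Pus10-KO and miR139-KD minus Pus10-KO, with 27, 30 and 30 positive. The medians of the aging list were -0.39, -2.72 and -1.68 in the same order. Over all genes of the treated fit the medians were -0.18, -0.23 and -0.03.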

How the data were processed

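Smart-seq2 libraries of sorted mouse hematopoietic stem cells, in which polyadenylated RNA is copied to full-length cDNA and cut by Tn5, were mapped with HISAT2 2.1.0 on build mm10; HTSeq 0.11.2 made the counts. The submitters' processing notes name these tools and the build. The deposited values are whole-number counts of reads per gene, per the labels and the values themselves; 5 summary entries per library were kept out of totals and tests. These libraries do not mark the strand, and their annotation release is not named in any source read. Symbols came from GENCODE M21 (55394 of 55487 IDs matched), and 4156 genes of the X and Y chromosomes were left out. Ambiguous and unassigned reads are given as percentages computed from the deposited counts. Depth was 11.8 to 47.3 M counts per control library; reads carry no molecular identifiers, so counting limits cover counting error only.

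Groups were compared with edgeR 4.0.16 (TMM, filterByExpr, robust quasi-likelihood F test, p adjusted by Benjamini-Hochberg across the 15426 genes tested, called below 0.05) in R 4.3.3, first tested on simulated data. Library measures were compared by exact permutation with scipy 1.17.1. Alternatives were DESeq2 1.42.0, library size scaling, other filters, thinning to equal depth, a fit over all 24 libraries, a replicate block, leaving out each library and, added after the data were seen, a GC correction per library. No pair of libraries within a group looked like a duplicate: chi-square divided by its degrees of freedom was at least 30.1 in all 21 pairs, and each library counted as 1 replicate.

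Genes were named by rule: the 20 highest per length, 8 per direction and group set apart from both other groups, the 8 steadiest, the 8 most uneven within NTC, up to 4 per list by the omnibus p, stem cell surface and transcription factor markers, other cell type markers and Pus10; some of these genes are not reported here. Members, lists and rules were chosen with earlier results of these data known, and Hmgcs1, Mki67 and Egr1 after their values were seen.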

Additional observations from a re-analysis of the deposited data

Results flagged for a closer look

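In a group of 6 a library was marked when its gap to the nearest one took up more of the group's range than Dixon's 95% critical value for 6 allows. Over 178 values tested, which only NTC has enough libraries for, 18 were marked, and chance marks about 1 in 20.

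NTC replicate 6 was the high library for stem cell surface genes: their sum was 4083 CPM against 3005 in the next library, Procr was at 60.9 CPM against 30.1, Ly6a at 187 against 94.3 and Jam3 at 5.69 against 2.1. Its sum of quiescence genes was 1692 CPM against 1422, H2-K1 was at 3054 CPM against 2423, and Ocln at 0.616 CPM against 0.145.

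NTC replicate 5 was the high library for immunoglobulin genes, with a plasma cell sum of 16922 CPM against 1066 in the next library and Jchain at 1039 CPM against 0 in the other 5. Mlf1 was at 0.235 CPM there and at 0 in the others.

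NTC replicate 1 had the highest share of reads without a gene, 11.8% against 8.68%, the lowest Calm2 at 602 CPM against 969.7, and Plag1 at 0.431 CPM against 0.0791. Abcg2 was at 145 CPM in NTC replicate 4 against 64.7 in the next library, Tnfrsf9 at 0.0712 CPM against 0, and Capzb lowest at 321 CPM against 366. A library with any count among others at 0 is always marked by this rule, and the Tnfrsf9 and Mlf1 values rest on very few reads. Vldlr was at 89.4 CPM in NTC replicate 2 against 50.2, and Ptma at 3789.8 CPM in NTC replicate 3 against 3248. The cause of these values was not tested.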

How the results depend on the processing

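Each count of genes differing between groups, of the 4 counts for the control groups and the 4 for the treated ones, stayed within 1.5 times its value under each alternative run. The 7663 genes that differed among the control groups became 8328 with DESeq2, 7655 with library size scaling, 7270 without a filter, 6921 with a filter at 10 CPM, 7604 at equal depth, 7688 in a fit over all 24 libraries and 7348 with the GC correction, and 6516 to 7907 with any library left out. For Vector against NTC, Vector against Pus10-WT and NTC against Pus10-WT, leaving out a library gave 4945 to 6561, 3602 to 5140 and 2957 to 4552.

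The replicate numbers do not pair the libraries: same-numbered libraries of different groups deviated from their group means with correlations of -0.025 to 0.014 (9 pairs), and a library correlated best with its own number in 4 of 18 comparisons. A fit with the replicate number as a block called 6613 genes among the groups and 5377, 4563 and 3326 in the 3 comparisons.

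Of 1894 refits of the named genes set apart by group, 1862 kept their call, 32 lost it and 0 reversed. Those lost were in 7 genes, mostly Ighv1-82 and Ctsg. Genes expressed in every control library numbered 9487 at 1 CPM, 10037 at 0.5 CPM and 6095 at 10 CPM. The adjusted p for genes detected at equal depth, 0.0428, was 0.00891 to 0.169 with any library left out and 0.000866 when a gene needed 5 counts.

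Depth limits the low genes: 3 counts over a group correspond to 0.0279 CPM in Vector, 0.0385 in NTC and 0.0596 in Pus10-WT, and a gene listed at 0 throughout a group may be as high as that. Group and experiment cannot be told apart in any of these fits.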

Other observations

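Replication-dependent histone genes, whose transcripts mostly lack a poly(A) tail, were lowest in Pus10-WT, as were the replication and mitosis genes. Of 18 tested, 6 were higher in Vector than in Pus10-WT and 8 higher in NTC than in Pus10-WT, with 0 lower in either (all genes 16.1% and 15.1% in that direction). Hist1h1b, a linker histone, was at 18.7, 12 and 12.1 CPM in Vector, 33.2 to 61.8 (median 45.4) in NTC and 1.44, 0 and 1.76 in Pus10-WT, with NTC minus Pus10-WT at 5.42 (SE 0.77, edgeR adjusted p = 0.000226). Between Vector and NTC 1 was higher in Vector (all genes 20.4%, and 0 to 2 with any library left out) and 5 in NTC (all genes 21.1%). The 5 became 2 or 3 without any one Vector library and 2 with the GC correction.

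Redox genes split between the groups. Of 18 tested, 5 were called each way between Vector and NTC (all genes 20.4% higher in Vector and 21.1% in NTC). The count was 3 in either direction without Vector replicate 3, and 3 for those higher in Vector without Vector replicate 1. Against Pus10-WT, 6 were higher in Vector and 3 lower (all genes 16.1% and 14.8%). Nqo1, a quinone reductase controlled by NRF2, was at 102, 86.6 and 102 CPM in Vector, 6.56 to 29 (median 18.4) in NTC and 30.8, 14.6 and 24.7 in Pus10-WT, highest in Vector (Vector minus NTC 2.46 with SE 0.35 and edgeR adjusted p = 0.000102). Fth1, the heavy chain of the iron store ferritin, was at 2601, 2602 and 2446 CPM in the Vector libraries, 2705 to 4115 (median 3343) in NTC and 2002, 1787 and 1881 in Pus10-WT. It has pseudogenes, so its level is uncertain.

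Mast cell and basophil genes were few. Of 18 on the list, 10 could be tested, and 4 of them were higher in NTC than in Vector against 1 lower (all genes 21.1% and 20.4%). That 1 was 0 with DESeq2 and with the 10 CPM filter. Cpa3, a mast cell carboxypeptidase that early progenitors also express, was at 2.06, 2.33 and 1.90 CPM in Vector, 9.49 to 38.1 (median 26.6) in NTC and 5.64, 1.24 and 0 in Pus10-WT. Hdc, which makes histamine, was at 0.530, 0 and 0.742 CPM in Vector, 6.96 to 18.5 (median 12.7) in NTC and 0 in all 3 Pus10-WT libraries.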
